A study of Labrus bergylta with 77 samples.

Results

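The genes described here take fatty acids into the mitochondrion, oxidise them there and in the peroxisome, or control that oxidation, in larvae and early juveniles of ballan wrasse (Labrus bergylta), a marine fish reared as a cleaner of salmon. Members were chosen by name: 37 gene names were looked up in the gene name column of the deposited expression table, ignoring case and allowing a copy letter a or b. Of these names, 34 had at least 1 row, and CPT1B, ACAD10 and HADHB had none under this rule. They gave 61 of the 29932 rows, and 60 of the 61 passed the filter on low values, 1 TPM (transcripts per 1000000) or more in at least 3 libraries. The remaining row, an ACADS copy (LABE_00071048), had a mean of 0.0159 TPM and was not tested. Several rows were found for 11 names, among them 10 rows for ACADS, 6 for CRAT, 4 for CPT1A and 4 for SLC22A5. One of the ACADS rows is named ACADSB, a distinct gene for branched-chain acyl-CoA that the copy letter rule took in, and it is described under its own name. Near-identical copies may have shared reads, so values of single copies are uncertain.

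Long-chain fatty acids enter the mitochondrion as carnitine esters. CPT1A forms them on the outer membrane and is the classical control point, SLC25A20 carries them across the inner membrane, and CPT2 returns them to coenzyme A. Each turn of the oxidation spiral then uses an acyl-CoA dehydrogenase chosen by chain length, a hydratase, a hydroxyacyl-CoA dehydrogenase and a thiolase, and electrons pass through the ETF proteins to the respiratory chain. The nuclear receptors PPARA, PPARD and PPARG bind fatty acids, and in mammals PPARA drives many of these genes in the fasting liver. A marine larva first lives on yolk, which is rich in lipid and amino acids, and then on its first live prey.

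Whole larvae were pooled, RNA was enriched with oligo(dT) beads and sequenced, and 77 pools were analysed. BW0 is 5 pools of unfed larvae from the incubator, 4 days after hatching and 4.0 mm long. All later stages come from 6 tanks, with 2 pools per tank and stage. Zooplankton was fed in B5, B7 and B9 (plankton diet), while the control diet, live rotifers plus Artemia, went to B6, B8 and B10. Stages were set by length, so ages differ between diets. BW2 larvae were 9 days old on both diets and 4.2 to 4.5 mm (control) or 4.1 to 4.3 mm (plankton) long. BW3 larvae were 16 days old on the control diet and 18 on plankton, BW4 larvae 26 and 28, and BW5 larvae 36 and 41, with lengths of 5.7 to 6.1, 7.1 to 7.4 and 10.1 to 10.6 mm over both diets. BW6 fish were 58 to 59 days old and 16.0 to 16.5 mm long, and BW7 fish were 79 to 80 days old and 26.4 to 27.9 mm long. Formulated dry feed was first given between the control and the plankton sampling of BW5, and it was the only feed in all tanks before BW6. The 6 tanks therefore share 1 diet at BW6 and BW7, and a diet difference there is one of feeding history. At BW3 to BW5 diet and age cannot be told apart. At BW5 the first dry feed came before the plankton sampling alone, so it cannot be told apart from diet and age either. The number of larvae per pool is not given in the sources used here. BW0 RNA was extracted with TRIzol and all other RNA with QIAzol, so the step from BW0 carries a change of reagent and of rearing vessel.

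Values are TPM, which are scaled for transcript length and sum to 1000000 in each pool, so that levels of different genes can be set beside each other. Read depth is unknown. Between 14958 and 19641 genes reached 1 TPM in a pool, and the 50 most abundant genes took 29.2% to 45.7% of the total. By their correlation over all genes, 9 pools were closer to another group than to their own. The clearest was 1 pool of plankton tank B5 at BW2, with r = 0.9422 to its own group and 0.9738 to unfed BW0, and 1 pool of control tank B8 at BW2 had 0.9706 to its own group and 0.978 to plankton-fed BW3. The main results at BW2 are given below with and without these pools. The libraries are whole larvae, so fewer cells of a type and less RNA per cell cannot be told apart in any result that follows.

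The most abundant members were the mitochondrial electron carriers and spiral enzymes. Averaged over all libraries, ETFA (LABE_00011727), a subunit of the electron transfer flavoprotein, had 219 TPM. Hadh (LABE_00006961), the short-chain hydroxyacyl-CoA dehydrogenase, had 171 TPM, and Etfb (LABE_00015412), the partner subunit of ETFA, had 150 TPM. Next came the hydratase Echs1 (LABE_00034014) with 108 TPM, the trifunctional protein subunit HADHA (LABE_00006583) with 95.3, the dienoyl-CoA reductase Decr1 (LABE_00078146) with 84.8, the thiolase Acaa2 (LABE_00036164) with 82.7 and the medium-chain dehydrogenase ACADM (LABE_00060830) with 77.8. The receptors were far lower: PPARD (LABE_00044127) averaged 11.8 TPM, ppara (LABE_00027237) 9.12 and PPARG (LABE_00007366) 6.29. The second PPARA row (LABE_00005845) averaged 2.26 TPM and the second PPARG row (LABE_00087916) 0.263.

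The summed level of the 61 members was 2553 ± 478 TPM in unfed BW0 larvae (SD, n = 5 pools). At BW2 it was 1729 ± 200 TPM on the control diet and 1373 ± 242 on plankton (SD, n = 3 tanks each). It ranged from 1695 to 2183 TPM over the 6 tanks at BW3, from 1777 to 2066 at BW4 and from 1878 to 2381 at BW5, then from 1518 to 1694 at BW6 and from 1374 to 1490 at BW7. By stage mean of the TPM as deposited, the sum was highest before feeding, next highest at BW5 and lowest at BW7, with a low point at first feeding as well. Median-ratio size factors, taken from genes above 0 in every library, differed between stages. They ran from 0.967 to 1.446 over the pools of BW0 and from 0.631 to 1.249 at BW2. At BW3 they ran from 1.152 to 1.411, at BW5 from 0.878 to 1.014 and at BW7 from 0.747 to 0.854. Whether the order of stages holds after division by them was not tested for the sum, nor was each member's highest or lowest stage found again. Members were fitted step by step under them. Their median difference was then -0.22 from BW0 to control-fed BW2 and -0.42 to plankton-fed BW2. It was 0.06 from BW2 to BW3, 0.04 to BW4, 0.27 to BW5, -0.20 to BW6 and -0.03 to BW7. From BW2 to BW7 it was 0.19, although the deposited sum was lowest at BW7. Member by member, 36 of 61 had their highest stage mean at BW0 and 11 at BW5, while 24 had their lowest at BW2 and 20 at BW7. The same counts over all genes were not made, so these cannot be called particular to the members.

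**Figure D1:**
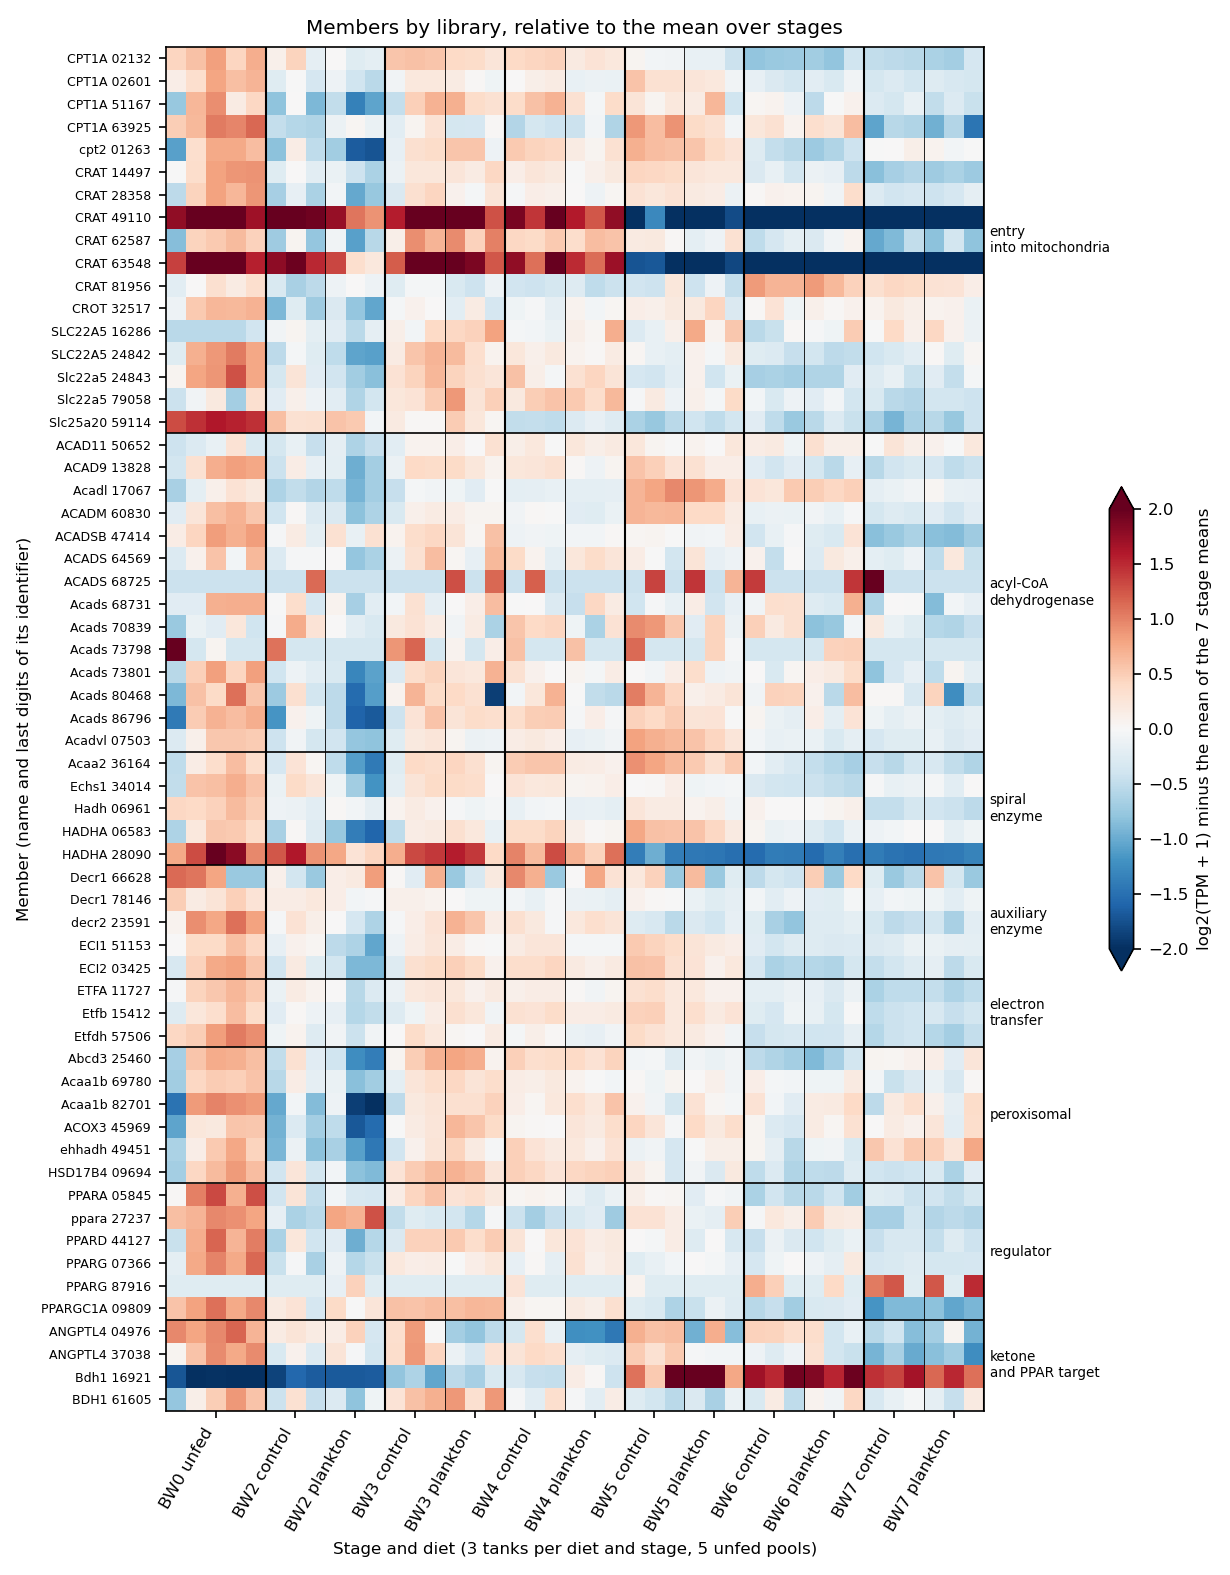
Each of the 60 tested members in each library, as log2(TPM + 1) minus the mean of the member's 7 stage means, with rows grouped by role, 1 column per library (3 tanks per diet and stage, 5 unfed pools at BW0) and the colour scale ending at 2 in either direction. Most of the BW0 pools are above the mean for most members, the plankton tanks at BW2 are below it for many, and CRAT LABE_00049110, CRAT LABE_00063548 and HADHA LABE_00028090 turn from high to low between BW4 and BW5.

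Some copies of 1 gene followed different courses. Across the stages, the rows with the widest spread of stage means were CRAT LABE_00049110 and CRAT LABE_00063548, carnitine O-acetyltransferases that exchange short acyl groups between carnitine and coenzyme A, at 5.04 and 4.46 on the log2(TPM + 1) scale. They were followed by Bdh1 (LABE_00016921), a ketone body dehydrogenase, at 3.77, the low HADHA row LABE_00028090 at 2.83 and Slc25a20 (LABE_00059114), the carnitine carrier, at 2.13. PPARGC1A, a coactivator of mitochondrial genes, spanned 1.80, CPT1A LABE_00063925 1.74 and the peroxisomal thiolase row Acaa1b LABE_00082701 1.60. Over the 41 libraries, which share stages and hence a common course, the levels of the CRAT rows LABE_00049110 and LABE_00063548 had r = 0.99. CRAT LABE_00081956 had r = -0.58 with the first of them. The HADHA rows had r = -0.01, the PPARA rows 0.29, the PPARG rows -0.37 and the Bdh1 rows -0.28, and the 4 CPT1A rows 0.25 to 0.70. PPARG LABE_00087916 averaged 0.263 TPM and was listed at 0 in every library of BW0 and BW3, so its r does not describe a course. The members most like HADHA LABE_00006583 over the same libraries were cpt2 (LABE_00001263, r = 0.95), Acads LABE_00086796 (0.91), Acaa2 (0.89), Acadvl (LABE_00007503, the very-long-chain dehydrogenase, 0.89) and the enoyl-CoA isomerase ECI1 (LABE_00051153, 0.88), and the lowest value was that of ppara, -0.25.

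At first feeding, plankton-fed larvae carried far more ppara transcript than control-fed larvae of the same age. At BW2 ppara stood at 15.4 TPM in tank B5, 14.4 in B7 and 22.1 in B9 on plankton, against 7.51 in B6, 5.13 in B8 and 5.58 in B10 on the control diet. Every plankton tank was above every control tank, and also within or above the 13.4, 14.2, 15.4, 16.9 and 17.6 TPM of the 5 unfed BW0 pools. The group means were 17.3 ± 4.23 and 6.07 ± 1.26 TPM (SD, n = 3 tanks each), a difference of 1.34 ± 0.17 (SE) in log2(TPM + 1), plankton minus control, with adjusted p = 6.30e-07. Differences and their tests here and below come from limma fitted over all 22028 genes passing the filter, with Benjamini-Hochberg adjustment over all of them and a call at an adjusted p under 0.05. The 12 single pools did not overlap either: plankton pools held 13.9 to 29.6 TPM and control pools 4.57 to 7.81. Without the 2 BW2 pools that stood apart the difference was 1.32 (adjusted p = 2.56e-07), and it was called under every alternative tried. At BW3 the diets overlapped, at 5.45 to 8.36 TPM over the 6 tanks.

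The other receptors and the coactivator did not pass the test at BW2. PPARD differed by -0.42 ± 0.24 (limma, adjusted p = 0.208), PPARA LABE_00005845 by -0.11 ± 0.20 (adjusted p = 0.734), PPARG by -0.05 ± 0.19 (adjusted p = 0.899) and PPARGC1A (LABE_00009809) by 0.16 ± 0.13 (adjusted p = 0.407). In each of them the tanks of both diets overlapped, with PPARD for example between 5.21 and 9.48 TPM on plankton and between 6.94 and 13.3 on the control diet.

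At BW2, 17 of the 60 tested members were lower on plankton and 3 were higher. Of all genes tested, 19.7% were lower and 9.49% higher in the same comparison, and the median difference was -0.35 over the members against -0.10 over all genes. The lower members were 4 of the 5 spiral enzyme rows, 3 of the 5 auxiliary enzymes for unsaturated fatty acids, 5 of the 17 rows for carnitine entry, 2 of the 14 dehydrogenases, 2 of the 6 peroxisomal rows and 1 of the 3 electron transfer rows. No ketone or PPAR target row passed. When TPM were divided by the median-ratio size factors, 19 members were called, 17 of them among the 20 called as deposited. The median difference was then -0.19 over the members and 0.00 over all genes, with 4223 of 22021 genes higher and 3679 lower. The size of these differences therefore depends on the scaling.

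Acaa2, the thiolase that releases acetyl-CoA, had 54.3, 35.6 and 28.5 TPM in plankton tanks B5, B7 and B9, against 61.5, 94.6 and 80.3 in control tanks B6, B8 and B10, a difference of -1.08 ± 0.19 (limma, adjusted p = 7.98e-05). HADHA LABE_00006583, the hydratase and dehydrogenase subunit of the trifunctional protein, had 53.6, 34.2 and 29.7 TPM against 57.8, 92.1 and 76.3, a difference of -1.0 ± 0.21 (limma, adjusted p = 0.000525). ECI1, which shifts double bonds so that unsaturated chains can be oxidised, had 36.7, 34.4 and 25.3 TPM against 47.4, 56.5 and 54.6, a difference of -0.72 ± 0.11 (limma, adjusted p = 1.47e-05). In all 3 genes the diets did not overlap, though tank B5 on plankton and tank B6 on the control diet lay close together for Acaa2 and HADHA. One of the pools of tank B5 is the one that resembled unfed larvae: for Acaa2 it held 84.3 TPM and its partner pool 24.4, and for HADHA 79.7 and 27.5. Without the 2 pools that stood apart the differences were -1.29 for Acaa2, -1.18 for HADHA and -0.82 for ECI1.

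Further along the pathway, Echs1 had 69.8 ± 27.2 TPM on plankton and 119 ± 21.0 on the control diet (SD, n = 3), and the difference of -0.83 ± 0.21 passed (limma, adjusted p = 0.00279). The peroxisomal fatty acyl importer Abcd3 (LABE_00025460) had 13.1 ± 5.54 against 24.2 ± 7.20 TPM (limma, adjusted p = 0.00396), and cpt2 had 5.34 ± 2.74 against 11.3 ± 4.35 TPM (limma, adjusted p = 0.00662). For these 3 genes the tanks of the diets overlapped. Of the 6 fits that leave out a tank, 4 kept the call of Echs1, 5 that of Abcd3 and 3 that of cpt2. The highest adjusted p in them was 0.0657, 0.0869 and 0.128 (limma). CRAT LABE_00063548 had 11.7, 5.40 and 4.85 TPM in tanks B5, B7 and B9 against 16.5, 18.6 and 13.3 in B6, B8 and B10, with no overlap (difference -1.20 ± 0.32, limma, adjusted p = 0.00424). Acads LABE_00086796, the short-chain dehydrogenase, differed by -1.16 ± 0.33 (limma, adjusted p = 0.00831). It had 4.05 ± 2.47 TPM on plankton and 8.26 ± 3.75 on the control diet, with overlap. Its call held in 3 of the 6 fits that leave out a tank (limma, adjusted p up to 0.129). Hadh, the second most abundant member, was not among the lower rows, with 172, 163 and 149 TPM on plankton and 158, 156 and 146 on the control diet.

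Beside ppara, 2 members were higher on plankton. CPT1A LABE_00063925 had 6.97, 7.87 and 6.87 TPM in tanks B5, B7 and B9 against 5.17, 4.80 and 4.71 in B6, B8 and B10, a difference of 0.47 ± 0.18 (limma, adjusted p = 0.0490), and CRAT LABE_00081956 had 12.3 ± 0.666 TPM against 8.95 ± 1.21 (SD, n = 3), a difference of 0.42 ± 0.15 (limma, adjusted p = 0.0263). The diets did not overlap in either row. They did in the other CPT1A rows. CPT1A LABE_00002601, the most abundant, had 37.9, 30.5 and 27.7 TPM in B5, B7 and B9 against 34.4, 40.4 and 32.0 in B6, B8 and B10. CPT1A LABE_00002132 had 5.69, 4.60 and 4.78 against 6.15, 8.02 and 4.88, and CPT1A LABE_00051167 had 2.46, 0.887 and 1.32 against 1.78, 3.89 and 1.60. Without the 2 pools that stood apart, CPT1A LABE_00063925 differed by 0.37 (adjusted p = 0.128) and CRAT LABE_00081956 by 0.55 (adjusted p = 0.00501). Both calls are weak: each held in 1 of the 6 fits that leave out a tank, with adjusted p of 0.0460 to 0.156 for CPT1A and 0.0185 to 0.185 for CRAT.

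**Figure D2:**
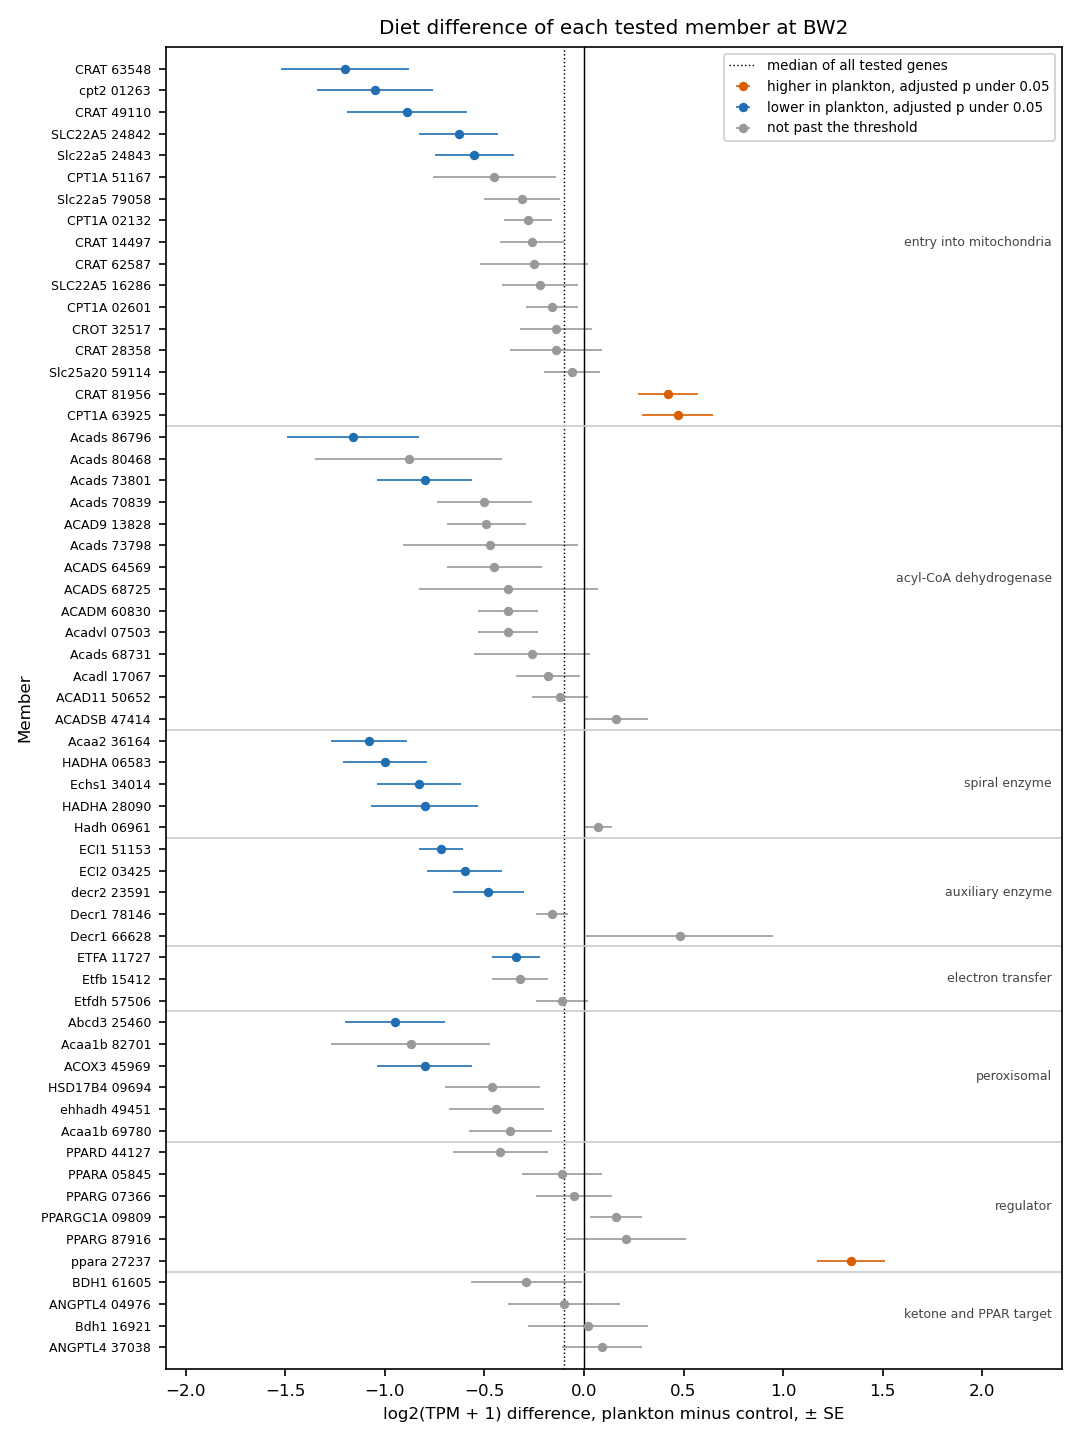
Diet difference at BW2 of each of the 60 tested members, plankton minus control on the log2(TPM + 1) scale, drawn as a point ± SE, with members grouped by role and named with the last digits of their identifier; orange marks members called higher and blue those called lower on plankton at an adjusted p under 0.05, and the dotted line is the median of all tested genes, -0.10. Of the members, 17 were called lower and 3 higher, and ppara, at 1.34, lies farthest to the right.

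The number of BW2 calls depended on single tanks. It was 5 without tank B8, 8 without B7, 9 without B9, 14 without B10 and 22 without B5, and ppara, ECI1, Acaa2, HADHA LABE_00006583 and CRAT LABE_00063548 were called in each of these fits. Fitted on the BW2 groups alone, 3 members were called (ppara, Acaa2 and CRAT LABE_00063548), with limma adjusted p of 0.0519 for ECI1 and 0.0570 for HADHA. Without the 2 pools that stood apart 28 were called. Calls over all genes moved too, so these swings cannot be called particular to the members. In the main fit 2090 of 22028 genes were higher and 4330 lower, and on the BW2 groups alone 446 and 869. Without the 2 pools it was 2051 and 6377 of 22031. It was 1172 and 3664 of 21944 without B10, and 1676 and 4206 of 21859 without B5. The counts over all genes without B7, B8 or B9 are not given here.

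Lists of related genes also held called genes at BW2, to be read beside the 19.7% of all genes that were lower on plankton and the 9.49% higher. Genes of the tricarboxylic acid cycle, which burns the acetyl-CoA released, were lower in 11 of 23 and higher in none, among them fumarase fh (LABE_00026285) with 42.0 ± 13.2 TPM on plankton and 82.5 ± 18.9 on the control diet (SD, n = 3; difference -1.08 ± 0.16, limma, adjusted p = 7.21e-06). Respiratory chain subunits were lower in 37 of 90 and higher in none, and other oxidation enzymes were lower in 8 of 26. Genes of lipolysis and the lipid droplet, a mixed list, were higher in 4 of 15 and lower in none. The triglyceride lipase rows PNPLA2 LABE_00021309, with 10.8 ± 1.33 against 2.83 ± 0.670 TPM, and Pnpla2 LABE_00005619, with 11.6 ± 1.37 against 4.37 ± 0.804, had the smallest p of these. Of 25 PPAR partners and fasting targets, 11 were higher and 1 lower, including the mitochondrial deacetylase SIRT3 (LABE_00062868) with 7.66 ± 0.294 against 3.19 ± 1.02 TPM (difference 1.05 ± 0.17, limma, adjusted p = 3.12e-05).

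Some markers of tissue and growth also differed between the diets at BW2, where 19.7% of all genes tested were lower on plankton and 9.49% higher. By count, the liver and cell cycle lists lay far above that share of lower genes, and the other lists near or below it. Of 22 liver markers 12 were lower on plankton, and their summed level was 250 to 719 TPM on plankton and 633 to 689 on the control diet. Of 28 intestine markers 4 were lower, with sums of 1250 to 1927 against 2621 to 3104 TPM. Of 28 fast muscle markers 7 were lower and 1 higher, with sums of 34215 to 42805 against 48134 to 50668 TPM, and of 19 slow muscle markers 4 were lower, with 751 to 1013 against 1014 to 1227 TPM. All 18 tested cell cycle genes were lower on plankton, with sums of 202 to 397 against 723 to 1008 TPM. Of 12 heart markers 1 was lower, and of 11 kidney and 2 adipose markers none passed. The part of these markers in the enzyme differences was not tested.

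After BW2 at most 1 member was called between the diets at any stage in the fit over all groups. At BW3 no member was called in either direction, with 0.141% of all genes higher and 0.141% lower, and 1 member reached an unadjusted p under 0.05 upward and 3 downward, against 2.67% and 3.54% of all genes. At BW4 no member was called higher and 1 lower, with 0.431% of all genes higher and 0.236% lower. At BW5 no member was called, with 0.159% of all genes higher and 0.141% lower, at BW6 none, with 0.518% higher and 0.286% lower, and at BW7 none, with 0.0726% higher and 0.0136% lower. At an unadjusted p under 0.05, 1 member was higher and 5 lower on plankton at BW4, against 2.20% and 4.56% of all genes. At BW5 it was 1 higher and 10 lower of the 60 members, against 2.91% and 2.04% of all genes, a lower share well above that of all genes. At BW6 it was 2 higher and 1 lower, against 4.44% and 3.77% of all genes, and at BW7 none, against 2.67% and 1.13%. Fitted on the BW4 groups alone, 1 of the 60 members was called higher and 8 lower at BW4, with 1.84% of all genes higher and 3.05% lower. Under median-ratio scaling the median diet difference at BW5 was -0.18 over the members and -0.00 over all genes. Leaving out 1 tank gave 1 call at BW3 (without B7), BW5 (without B7) and BW6 (without B9).

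The member called at BW4 was ANGPTL4 LABE_00004976, a secreted inhibitor of lipoprotein lipase that PPARs and fatty acids induce in mammals. It stood at 16.6, 16.7 and 14.3 TPM in plankton tanks B5, B7 and B9, against 31.2, 51.0 and 36.0 in control tanks B6, B8 and B10, a difference of -1.23 ± 0.28 (limma, adjusted p = 0.0213). All plankton tanks lay below all control tanks. The call is weak: leaving out a tank gave adjusted p of 0.00247 to 0.319, below 0.05 only without B7, and it was 0.0618 under median-ratio scaling, in which TPM are divided by size factors taken from genes above 0 in every library. At BW3 the same gene held 24.6, 22.9 and 27.5 TPM on plankton and 50.6, 73.3 and 39.8 on the control diet, again without overlap, but the difference of -1.07 ± 0.28 did not pass (limma, adjusted p = 0.108). At BW5 plankton tanks B5 and B9 held 20.2 and 21.8 TPM, while plankton tank B7, at 67.2, lay with the control tanks at 60.5 to 66.5 (difference -1.04 ± 0.28, limma, adjusted p = 0.141). At BW2 the diets overlapped, with 31.6 to 55.3 TPM on plankton and 45.0 to 47.9 on the control diet, and at BW6 and BW7 they overlapped as well.

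The second ANGPTL4 row, LABE_00037038, was not called at any stage between diets. Its plankton tanks were below its control tanks at BW3 with 24.9 to 39.1 against 40.7 to 58.8 TPM, at BW4 with 26.0 to 27.8 against 38.2 to 42.0, and at BW5 with 30.4 to 31.3 against 39.6 to 45.8. The differences were -0.62, -0.57 and -0.50, each ± 0.20, with adjusted p of 0.317, 0.355 and 0.716 (limma).

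Several oxidation enzymes also had non-overlapping tanks at BW4 and BW5, with small differences. At BW4, 20 of 60 members had all plankton tanks below all control tanks and 7 had them above; among all genes 20.3% and 10.0% did so. At BW5 it was 22 members below (36.7%) and 2 above (3.33%), against 4.59% and 9.77% of all genes. Acaa2 at BW5 had 113, 97.9 and 112 TPM in plankton tanks and 147, 136 and 123 in control tanks, and ACADM had 100, 100 and 84.8 against 122, 119 and 121 (limma, adjusted p = 0.873). Acadvl had 110, 99.6 and 88.2 TPM in tanks B5, B7 and B9 against 130, 122 and 117 in B6, B8 and B10. The member sum at BW5 was 1878 to 2090 TPM on plankton and 2213 to 2381 on the control diet, at BW4 1777 to 1839 and 2009 to 2066. None of the enzymes named here passed the adjusted test in the fit over all groups. The plankton larvae were the older ones at both stages, and at BW5 only they were sampled after the first dry feed. Diet, age and dry feed cannot be told apart there.

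**Figure D3:**
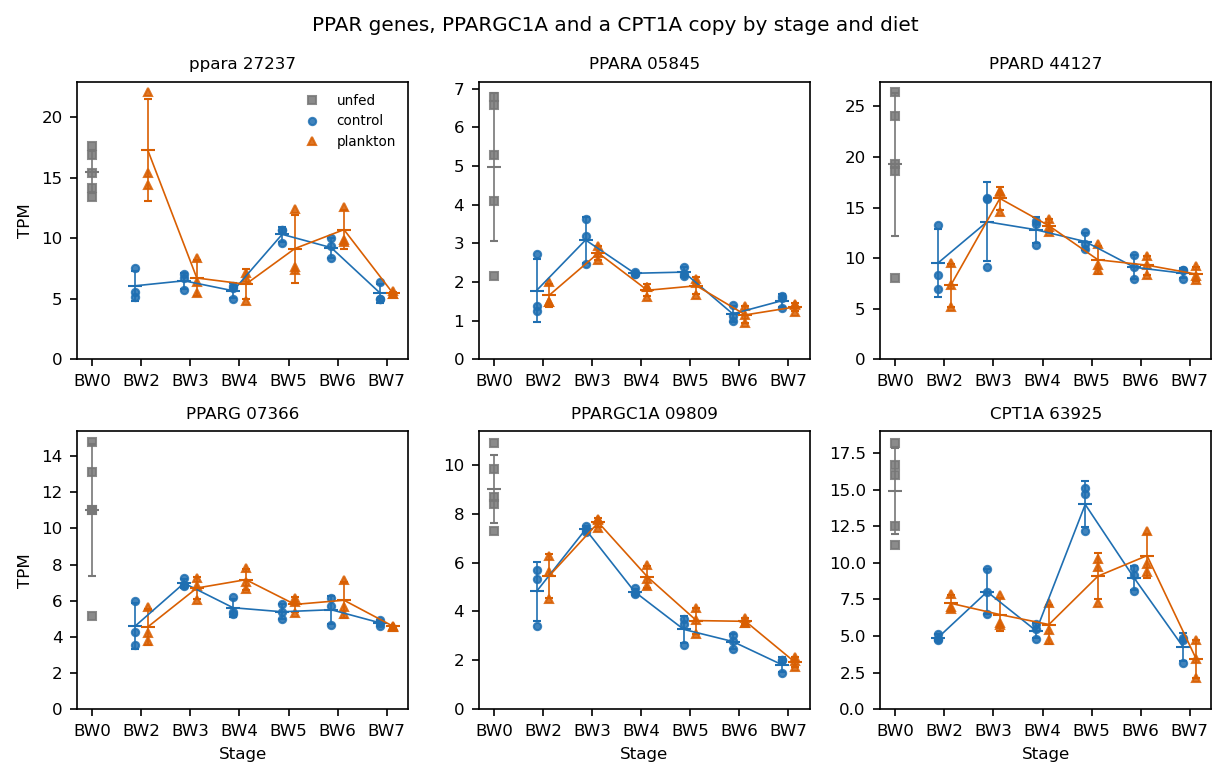
Level in TPM of the receptors ppara, PPARA, PPARD and PPARG, the coactivator PPARGC1A and CPT1A LABE_00063925 by stage, with 1 point per tank or BW0 pool, bars for the mean ± SD and lines through the diet means. The diets part at BW2 for ppara, with 17.3 TPM on plankton and 6.07 on the control diet, and overlap for it at BW3, while PPARGC1A has a mean of 9.02 TPM at BW0 and 1.88 at BW7.

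From unfed BW0 to control-fed BW2, most of the pathway fell. Of 60 members 40 were lower and 1 higher, with 43.7% of all genes lower and 4.40% higher, and the median difference was -0.62 over the members against -0.32 over all genes. From BW0 to plankton-fed BW2, 49 were lower and none higher, with 56.9% of all genes lower and 4.86% higher, and medians of -0.98 and -0.43. Both comparisons share the 5 BW0 pools. These all came from the incubator and entered the fit as separate libraries beside tank averages. The pools are not replicate vessels, so the SE and p of any step from BW0 do not measure a spread between vessels at BW0. When TPM were rescaled by median-ratio size factors the median of all genes moved up by 0.29 and 0.43, so falls smaller than this depend on the scaling, and 18 and 36 members were then lower, with 15.7% and 23.8% of all genes lower. Titles of 4 of the 5 BW0 pools are written in another style than most. Leaving out all pools with such titles keeps 1 BW0 pool, the one closer to control-fed BW2 than to the other unfed pools, so these fits assume that it varies like the other groups: 8 members were then lower and 1 higher in the control comparison and 27 lower in the plankton one. Without that 1 pool instead, 45 and 50 members were called, and without tank B6 or B10 the control comparison called 27 and 29. Over all genes, that comparison had 653 of 21944 higher and 5337 lower without B10, against 970 and 9622 of 22028 in the main fit.

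Of the 17 rows for carnitine entry, 13 were lower than before feeding on the control diet and 14 on plankton, and none was higher. Of all genes, 43.7% were lower on the control diet and 56.9% on plankton. Counts by role, here and for the regulators and spiral enzymes below, are of TPM as deposited. Such counts were not made under median-ratio scaling, under which fewer members were lower. Slc25a20 had 84.6, 93.8, 93.9, 99.6 and 104 TPM in the unfed pools, 51.6, 41.6 and 42.0 in control tanks B6, B8 and B10 and 50.2, 48.6 and 32.4 in plankton tanks B5, B7 and B9. No fed tank reached any unfed pool, and the differences were -1.07 ± 0.12 (limma, adjusted p = 1.71e-07) and -1.13 ± 0.12 (limma, adjusted p = 2.79e-08). CPT1A LABE_00063925 had 11.2, 12.5, 16.0, 16.7 and 18.2 TPM before feeding and 4.89 ± 0.244 in control tanks (difference -1.42 ± 0.16, limma, adjusted p = 1.33e-07). CROT, which makes carnitine esters of medium-chain fatty acids in the peroxisome, had 38.9 ± 7.97 TPM (n = 5) before feeding and 17.6 ± 4.48 and 16.7 ± 4.79 (n = 3) on control and plankton diets, and both differences passed.

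Of the 6 regulator rows, 5 were lower than before feeding on the control diet and 4 on plankton. Against the unfed pools, ppara was lower in control tanks by -1.23 ± 0.15 (limma, adjusted p = 2.76e-07) and did not pass in plankton tanks, with 0.11 ± 0.15 (limma, adjusted p = 0.560). PPARGC1A had 9.02 ± 1.38 TPM before feeding and 4.82 ± 1.23 in control tanks, a difference of -0.81 ± 0.12 (limma, adjusted p = 5.53e-06), and 5.46 ± 0.894 in plankton tanks (-0.65 ± 0.12, limma, adjusted p = 3.55e-05). PPARG had 11.0 ± 3.63 and 4.59 ± 1.28 TPM (difference -1.07 ± 0.17, limma, adjusted p = 1.57e-05), and 4.54 ± 0.984 in plankton tanks (-1.12 ± 0.17, limma, adjusted p = 3.28e-06). Its control difference was called in all 11 fits that leave out a tank or BW0 pool. Against the 1 BW0 pool left without the other title style, which held 5.18 TPM of PPARG where the other 4 held 11.0 to 14.8, it was -0.27 (adjusted p = 0.370).

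Of the spiral enzyme rows, 5 of 5 were lower than before feeding on plankton and 2 of 5 on the control diet, and the direct test of the diets is that at BW2 above. HADHA LABE_00006583 had 58.9, 105, 118, 131 and 133 TPM in the unfed pools and 39.2 ± 12.7 on plankton (difference -1.51 ± 0.19, limma, adjusted p = 1.60e-07), with 1 unfed pool much lower than the other 4. ECI1 fell by 1.10 ± 0.10 on the log2 scale, to 32.1 ± 6.03 from 69.0 ± 10.2 TPM (limma, adjusted p = 1.62e-09). Hadh was lower on both diets, by -0.63 ± 0.06 and -0.56 ± 0.06, but under median-ratio scaling these became -0.21 (adjusted p = 0.102) and 0.06 (adjusted p = 0.641), so its direction on plankton flips with the scaling. The only member called higher was Acads LABE_00070839, at 1.28 ± 0.619 TPM on the control diet against 0.516 ± 0.371 before feeding (limma, adjusted p = 0.0244; called in 7 of 11 fits that leave out a tank or BW0 pool, adjusted p 0.00850 to 0.214).

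Between BW2 and BW3, over both diets, 44 members rose and 1 fell, with 63.3% of all genes higher and 5.45% lower. The members' median was 0.51 against 0.42 for all genes, and median-ratio scaling moved the median of all genes by -0.40, after which 18 members were higher and 12 lower, against 29.7% and 28.9% of all genes. The share of members that rose under that scaling is close to that of all genes. All 6 peroxisomal rows were called higher as deposited, with a median of 1.03. Their median under median-ratio scaling is not given here. Over all members it was 0.06 under that scaling, against 0.02 over all genes. ACOX3 (LABE_00045969), a peroxisomal acyl-CoA oxidase, went from a range of 4.14 to 12.9 TPM (median 8.61) over the 6 tanks at BW2 to 15.7 to 25.6 (median 19.9) at BW3, without overlap, a difference of 1.41 ± 0.17 (limma, adjusted p = 5.10e-08; 0.89 under median-ratio scaling). The bifunctional enzyme ehhadh (LABE_00049451) rose from 4.75 ± 1.86 to 9.65 ± 1.97 TPM (SD, n = 6) and Abcd3 from 18.7 ± 8.40 to 37.2 ± 8.26.

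In the mitochondrion, cpt2 rose from 8.30 ± 4.59 to 17.8 ± 3.86 TPM (difference 1.22 ± 0.21, limma, adjusted p = 6.11e-06; 0.71 under median-ratio scaling), and CRAT LABE_00062587 rose by 1.34 ± 0.19. HADHA LABE_00006583 and Acaa2 rose by 0.84 ± 0.15 and 0.78 ± 0.14, which became 0.27 (adjusted p = 0.0308) and 0.21 (adjusted p = 0.121) under median-ratio scaling. ECI1 rose by 0.45 ± 0.08 as deposited and was at -0.12 (adjusted p = 0.215) under that scaling, so its direction is not settled. The only member that fell was ppara, by 0.58 ± 0.12 on the log2 scale (limma, adjusted p = 7.48e-05), from 5.13 to 22.1 TPM at BW2 to 5.45 to 8.36 at BW3, where the plankton tanks came down and the control tanks stayed between 5.74 and 7.05.

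From BW3 to BW4 little changed. Of the members 7 fell and none rose, with 22.8% of all genes lower and 6.26% higher. Slc25a20 went from 34.1 to 48.0 TPM (median 36.5) to 23.3 to 29.8 (median 25.8), without overlap (difference -0.53 ± 0.10, limma, adjusted p = 0.000138), and PPARGC1A from 7.50 ± 0.217 to 5.11 ± 0.447 TPM (n = 6; difference -0.48 ± 0.10, limma, adjusted p = 0.000330), also without overlap. Both held under every alternative. BDH1 LABE_00061605 (-0.61 ± 0.20), ACADSB (-0.34 ± 0.11), Hadh (-0.15 ± 0.05) and ANGPTL4 LABE_00004976 (-0.51 ± 0.20) passed with adjusted p of 0.0188, 0.0204, 0.0212 and 0.0487 (limma) and each lost its call in at least 2 of the 6 fits that leave out a tank; under median-ratio scaling Hadh was at 0.00. Without B5 or B8 the count was 2, and without B6 or B10 it was 4. Over all genes, 1379 of 22028 were higher and 5015 lower in the main fit. Without B5 it was 1185 and 3522 of 21859, and without B10 1089 and 3639 of 21944.

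Between BW4 and BW5 11 members rose and 10 fell, with 10.6% of all genes higher and 39.1% lower. The members' median was 0.07 against -0.22 for all genes. Median-ratio scaling moved the latter by 0.23, and 28 members were then higher and 6 lower, against 21.8% and 15.2% of all genes, so the split between rises and falls depends on the scaling. The calls named below had the same direction under both scalings.

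In 3 rows that had been expressed at every earlier stage the transcript nearly disappeared. CRAT LABE_00049110 had 17.8 to 39.9 TPM (median 24.4) over the 6 tanks at BW4, 0.282 to 2.25 (median 0.898) at BW5 and 0.0396 to 0.136 at BW6, with a BW4 to BW5 difference of -3.74 ± 0.21 (limma, adjusted p = 3.89e-15). CRAT LABE_00063548 had 9.80 to 19.5 TPM at BW4 and 0.0233 to 0.552 at BW5, and at BW6 it was listed at 0 in 5 of 6 tanks with 0.0212 in the other (difference -3.51 ± 0.22, limma, adjusted p = 8.63e-14). HADHA LABE_00028090 had 2.92 to 6.14 TPM at BW4 and 0.0206 to 0.462 at BW5 (difference -2.18 ± 0.19, limma, adjusted p = 1.21e-10). The 2 stages did not overlap in any of these rows, on either diet. Over the same step HADHA LABE_00006583 stood at 92.7 to 124 TPM at BW4 and 103 to 157 at BW5, and CRAT LABE_00081956 stood at 8.77 to 10.6 and 8.99 to 15.3 TPM. These values stand on log2(TPM + 1), which understates changes in rows this low.

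At the same step, in TPM as deposited, 3 of 14 dehydrogenase rows rose and none fell. Of 17 entry rows 2 rose and 5 fell, near or below the 10.6% of all genes that rose and the 39.1% that fell. These counts by role were not made under median-ratio scaling. Acadl (LABE_00017067), the long-chain dehydrogenase, had 48.4 to 50.2 TPM (median 48.9) at BW4 and 67.4 to 110 (median 95.8) at BW5, a difference of 0.91 ± 0.11 (limma, adjusted p = 1.56e-07). ACADM went from 70.5 ± 5.43 to 108 ± 15.2 TPM (n = 6; 0.60 ± 0.11, limma, adjusted p = 3.00e-05) and Acadvl from 75.3 ± 8.36 to 111 ± 15.4 (0.55 ± 0.11, limma, adjusted p = 7.06e-05). CPT1A LABE_00063925 went from 4.71 to 7.27 TPM (median 5.43) to 7.29 to 15.1 (median 11.2), a difference of 0.91 ± 0.13 (limma, adjusted p = 9.97e-07). In each of these the stages did not overlap. The receptor ppara rose as well, from 4.79 to 7.13 TPM to 7.42 to 12.4 (0.62 ± 0.12, limma, adjusted p = 6.23e-05), whereas CPT1A LABE_00002132 fell from 7.32 ± 0.703 to 5.09 ± 0.655 TPM.

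Bdh1 LABE_00016921, named for the mitochondrial enzyme that interconverts the main ketone bodies, had the largest rise of the step. It had 0.352 to 0.917 TPM at BW0, 0.738 to 1.12 at BW2, 3.54 to 5.95 at BW4 and 8.08 to 33.2 at BW5, where tanks B8 and B9 were lowest at 8.08 and 9.80 and tank B10 highest. The BW4 to BW5 difference was 1.77 ± 0.21 (limma, adjusted p = 5.47e-08). It then stayed between 12.5 and 23.4 TPM at BW6 and BW7. Its second row, BDH1 LABE_00061605, was between 4.34 and 9.59 TPM at BW4 and BW5. Liver markers rose in 20 of 22 and fell in none at this step, where 10.6% of all genes rose and 39.1% fell. Fast muscle markers rose in 14 and fell in 10 of 28. The part of these markers in the members' changes was not tested. Calls that depended on scaling or on a tank were decr2 (-0.54 ± 0.13, and -0.25 with adjusted p = 0.0961 under median-ratio scaling), Abcd3 (-0.49 ± 0.18, and -0.20 with adjusted p = 0.239) and the peroxisomal bifunctional enzyme HSD17B4 (-0.46 ± 0.17, and -0.17 with adjusted p = 0.324).

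**Figure D4:**
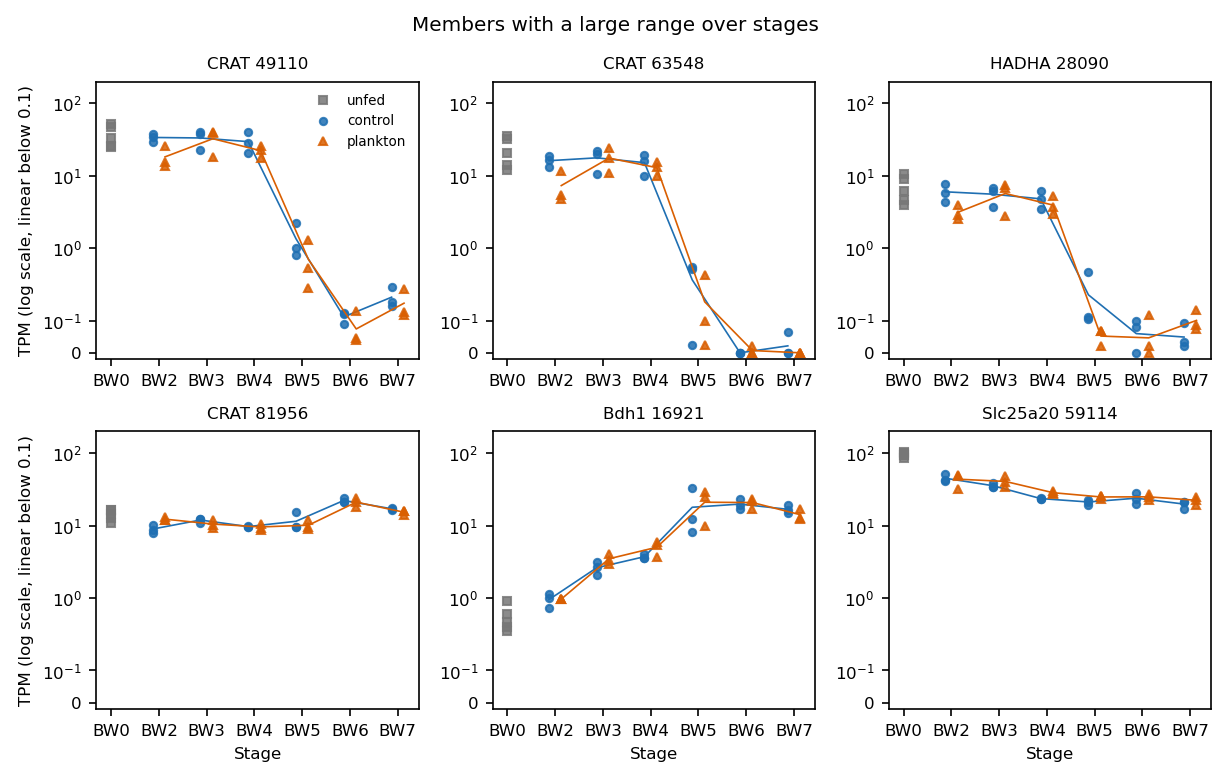
Level in TPM of CRAT LABE_00049110, CRAT LABE_00063548, HADHA LABE_00028090, CRAT LABE_00081956, Bdh1 LABE_00016921 and Slc25a20 by stage, 1 point per tank or BW0 pool on a log axis that is linear below 0.1, with lines through the diet means. For the first 3 rows all 6 tanks at BW5 lie below all 6 at BW4, Bdh1 climbs over the same stages, CRAT LABE_00081956 is highest at BW6 and Slc25a20 is highest at BW0.

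Across weaning, from BW5 to BW6, nearly all called members fell. Of the members 23 fell and 1 rose, with 24.4% of all genes lower and 18.1% higher, and the members' median was -0.26 against -0.08 for all genes. Under median-ratio scaling 23 were lower and 2 higher, against 22.3% and 24.7% of all genes. Fallers were 3 of 5 spiral enzyme rows, 2 of 5 auxiliary enzymes, 3 of 3 electron transfer rows, 5 of 14 dehydrogenases, 6 of 17 entry rows, 2 of 6 peroxisomal rows, 1 of 6 regulators and 1 of 4 ketone and PPAR target rows. The named calls of this step held under every alternative tried.

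Acaa2 went from 97.9 to 147 TPM (median 118) over the 6 tanks at BW5 to 48.8 to 74.8 (median 58.8) at BW6, a difference of -1.01 ± 0.14 (limma, adjusted p = 4.61e-07). Acadvl went from 88.2 to 130 TPM (median 114) to 59.9 to 71.5 (median 67.3), a difference of -0.73 ± 0.11 (limma, adjusted p = 1.57e-06), and ECI1 from 58.5 to 76.6 TPM to 41.1 to 45.4 (-0.59 ± 0.08, limma, adjusted p = 4.91e-07). No tank of BW6 reached any tank of BW5 in these 3 genes. ECI2, a related isomerase, fell from 61.6 ± 8.69 to 33.5 ± 3.20 TPM (n = 6), ACADM from 108 ± 15.2 to 70.4 ± 2.53, and Etfdh, which hands electrons to ubiquinone, from 58.2 ± 6.34 to 39.9 ± 2.84. CPT1A LABE_00002601, the most abundant CPT1A row, fell from 49.5 ± 7.18 to 34.5 ± 2.60 TPM and CRAT LABE_00014497 from 27.2 ± 2.09 to 17.8 ± 2.00. The summed level of the 5 spiral enzyme rows was 478 to 611 TPM at BW5 and 372 to 434 at BW6.

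The 1 member that rose was CRAT LABE_00081956, from 8.99 to 15.3 TPM (median 9.55) to 18.1 to 24.2 (median 21.3), a difference of 0.97 ± 0.10 (limma, adjusted p = 5.80e-09), without overlap. The receptor ppara stood at 7.42 to 12.4 TPM before and 8.36 to 12.6 after. In lists of genes downstream of the spiral, 70 of 90 respiratory chain subunits fell and 4 rose, with a median of -0.47. Of all genes, 24.4% fell and 18.1% rose at this step. Of 23 tricarboxylic acid cycle genes, 16 fell and none rose. Whether these changes are linked to those of the spiral enzymes was not tested. Of the uptake and activation genes 14 of 22 fell and 2 rose, with the heart-type fatty acid binding protein fabp3 (LABE_00012183) going from 891 ± 174 to 395 ± 19.7 TPM (n = 6). All 18 cell cycle genes fell as well, liver markers rose in 9 and fell in 3 of 22, and fast muscle markers rose in 6 and fell in 9 of 28; the part of these in the fall was not tested. Age, length and feed change together between these stages and cannot be told apart.

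**Figure D5:**
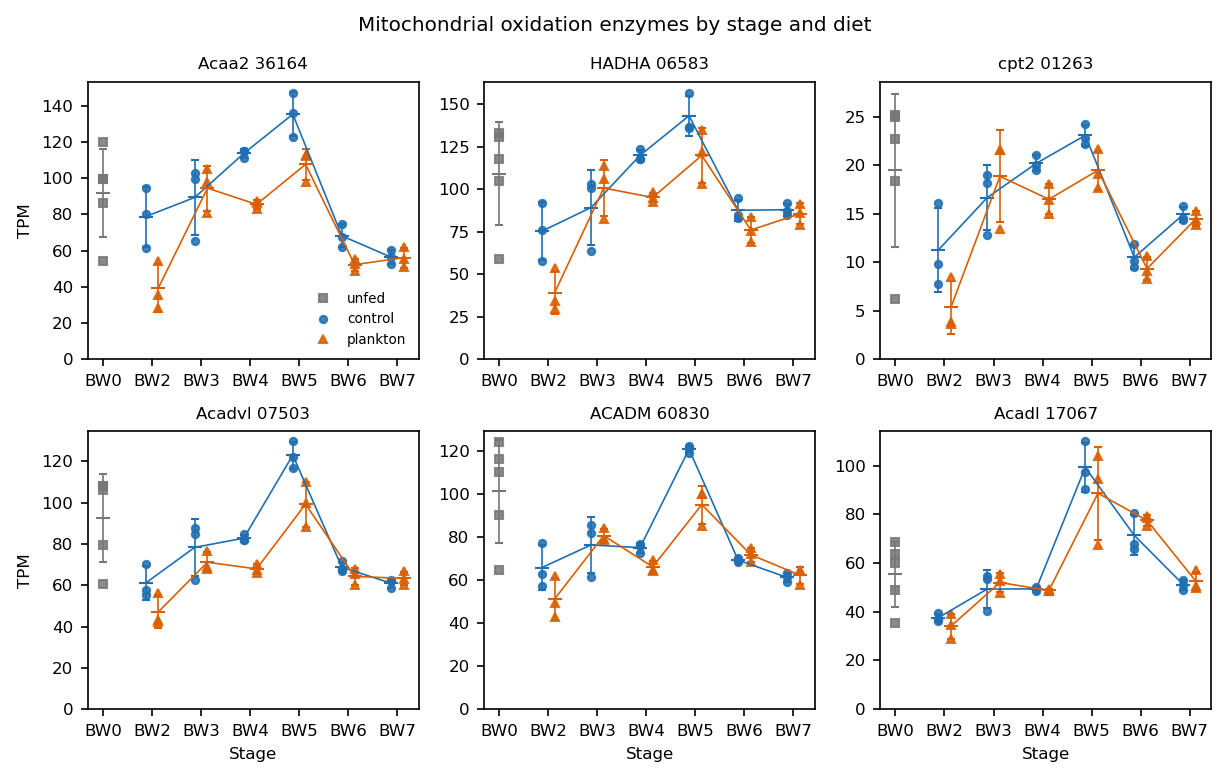
Level in TPM of Acaa2, HADHA LABE_00006583, cpt2, Acadvl, ACADM and Acadl by stage, with 1 point per tank or BW0 pool, bars for the mean ± SD over 3 tanks per diet (5 pools at BW0) and lines through the diet means. On both diets the mean is higher at BW5 than at any other fed stage, for Acaa2 60.2 TPM at BW6 against 121 at BW5 over both diets.

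From BW6 to BW7, with all fish on dry feed, 13 members fell and 4 rose, with 25.4% of all genes lower and 11.6% higher. CPT1A LABE_00063925 went from 8.08 to 12.2 TPM (median 9.50) to 2.15 to 4.85 (median 4.08), a difference of -1.16 ± 0.13 (limma, adjusted p = 2.54e-08), and ppara from 8.36 to 12.6 TPM to 5.00 to 6.36 (-0.75 ± 0.12, limma, adjusted p = 7.05e-06). Hadh fell from 168 to 182 TPM to 117 to 132 (-0.48 ± 0.05, limma, adjusted p = 5.60e-09). None of the 3 overlapped between stages, and this CPT1A row and ppara, which had both risen at BW5, both fell here. Other rows of the 2 genes took other courses. CPT1A LABE_00002601, the most abundant CPT1A row, had means of 34.5 TPM at BW6 and 32.4 at BW7. CPT1A LABE_00002132 had 3.13 and 3.59, CPT1A LABE_00051167 3.65 and 2.86, and PPARA LABE_00005845 1.16 and 1.43. Acadl, ETFA, ACADSB and ANGPTL4 LABE_00037038 fell too, by 0.50, 0.36, 0.62 and 0.73 on the log2 scale. Of the 6 peroxisomal rows 2 rose and none fell: ehhadh went from 5.69 to 9.25 TPM to 10.6 to 15.8 (0.67 ± 0.17, limma, adjusted p = 0.00245) and Abcd3 from 16.7 ± 2.11 to 27.2 ± 2.89 (n = 6; 0.68 ± 0.18, limma, adjusted p = 0.00252). The rise of cpt2, from 8.31 to 11.9 to 13.8 to 15.8 TPM, passed with adjusted p = 0.0406 (limma) but not in any of the 6 fits that leave out a tank (0.0629 to 0.158), and the fall of CRAT LABE_00081956 by 0.39 was lost under median-ratio scaling (adjusted p = 0.0638).

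Over the whole fed period from BW2 to BW7, 18 members rose and 18 fell, with 34.7% of all genes higher and 38.0% lower, and 25 rose and 16 fell under median-ratio scaling, against 41.5% and 36.1% of all genes. The largest falls were those of CRAT LABE_00049110, from 26.0 ± 9.75 to 0.192 ± 0.0731 TPM (n = 6), and CRAT LABE_00063548, from 11.7 ± 5.66 TPM to 0.0648 in tank B10 and a listed 0 in the other 5 tanks. Slc25a20 went from 44.4 ± 7.23 to 21.1 ± 2.71 TPM and ACADSB from 17.6 ± 2.86 to 9.29 ± 0.634. The largest rise was that of Bdh1, from 0.958 ± 0.124 to 15.4 ± 2.50 TPM (3.06 ± 0.21, limma, adjusted p = 2.17e-14). Peroxisomal ehhadh rose from 4.75 ± 1.86 to 12.8 ± 1.87 TPM, ACOX3 from 8.31 ± 3.45 to 17.2 ± 2.42 and CROT from 17.1 ± 4.18 to 28.4 ± 2.11. In all, 4 of 6 peroxisomal rows rose and none fell.

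A contrast of the diet difference at BW2 with the mean diet difference at BW3 to BW7 tested whether the first-feeding pattern differed from later ones. Of the members 3 were higher and 14 lower in it, with 7.51% of all genes higher and 17.1% lower. It was 1.32 ± 0.18 for ppara (limma, adjusted p = 9.85e-06) and -0.63 ± 0.12 for ECI1 (limma, adjusted p = 0.000460), and these 2 were called under every alternative. For Acaa2 it was -0.87 ± 0.21 (limma, adjusted p = 0.00282), for HADHA LABE_00006583 -0.87 ± 0.23 (limma, adjusted p = 0.00596), for ACOX3 -1.03 ± 0.27 (limma, adjusted p = 0.00501) and for CPT1A LABE_00063925 0.65 ± 0.20 (limma, adjusted p = 0.0165). The count was 2 without tank B8, 7 without B7 or B9 and 9 without B10. Over all genes, 1654 of 22028 were higher and 3776 lower in the main fit, and 755 and 2894 of 21944 without B10. The counts over all genes without B7, B8 or B9 are not given here. The contrast shares its BW2 tanks with the BW2 comparison and is not independent of it.

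A second contrast set the diet difference after weaning, the mean of BW6 and BW7, against that at BW2 to BW5. No member was called in it by limma, with 0.0999% of all genes higher and 0.0590% lower, and 6 members reached an unadjusted p under 0.05, all upward, against 5.75% of all genes upward and 2.12% downward. The smallest p belonged to ECI1, with 0.35 ± 0.10 and adjusted p = 0.140.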

How the data were processed

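The authors deposited 1 table of TPM per gene and pool, which sums to 1000000 in each column and holds no read counts. The tools named per the submitters' processing notes are Salmon and edgeR, with roles, versions and genome build not given in the sources used here. All 77 value columns matched a sample title, so 0 were left unmapped. TPM were taken as log2(TPM + 1), pools of 1 tank and stage were averaged, and 13 groups of 41 libraries (36 tank libraries and 5 BW0 pools) were fitted in 1 model with limma 3.58.1 in R 4.3.3, with trend, since TPM are not suited to a count test. A gene entered the test with 1 TPM or more in 3 libraries or more (22028 genes), and p-values were adjusted by Benjamini-Hochberg over all of them in each of 16 comparisons. Tables and figures were made with Python 3.11.15, numpy 2.4.6, pandas 2.3.3 and matplotlib 3.10.9, and the fit was tested on simulated data.

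Members, gene lists and tests were chosen with earlier results of these data known. A set of core genes was looked up in every comparison, but the text does not give all of them in each. The absence of a core gene from a comparison therefore says nothing about its result there. The naming rule also took up to 8 called members per direction by p with a mean of at least 5 TPM. To these it added 1 member against the common direction, and the 8 highest and 8 most variable members. Rows quoted outside this rule, such as those set beside a changed copy, were chosen after their values were seen. HSD17B10, with 44 rows against at most 20 kept per name, was left out of the other lists. Alternatives were another pseudocount (0.1), no filter, median-ratio size factors, a fit on the compared groups alone, a tank block, and leaving out tanks or pools; leaving out the doubted BW2 pools was chosen after seeing the data. The same tanks were sampled at every stage, so the labels pair samples by tank; deviations from group means of the same tank at different stages had a median correlation of 0.01 (-0.18 to 0.30). Tanks are the replicates at the fed stages, with 3 per diet, and their number limits the precision. At BW0 the replicates are pools from the incubator, not separate vessels. No sequences or positions were analysed here.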

Additional observations from a re-analysis of the deposited data

Results flagged for a closer look

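In 6 of the 44 members checked in the 5 unfed BW0 pools, 1 pool lay far below the other 4 by Dixon's criterion at its critical value of 0.71; chance gives about 1 in 20 groups. The low value was 25.1 TPM for CROT (LABE_00032517), 3.27 for Acads (LABE_00086796), 74.6 for Echs1 (LABE_00034014) and 16.1 for Abcd3 (LABE_00025460), and 8.04 and 1.58 for the Acaa1b rows LABE_00069780 and LABE_00082701. It came from the same pool each time, which by its correlation over all genes was closer to control-fed BW2 (r = 0.9673) than to the other unfed pools (0.9633).

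The diet difference at BW2 differed from the mean diet difference at BW3 to BW7 in 17 members (limma, adjusted p under 0.05). Of the tested members 5.00% were higher and 23.3% lower, against 7.51% and 17.1% of all genes. These shares are not far apart, so the count cannot be called particular to the members. It was higher at BW2 for ppara by 1.32, CPT1A LABE_00063925 by 0.65 and CRAT LABE_00081956 by 0.54 on the log2(TPM + 1) scale. Some spiral and auxiliary enzymes were lower: -0.87 for HADHA LABE_00006583, -0.87 for Acaa2, -0.76 for Echs1, -0.63 for ECI1 and -0.65 for decr2. Others, among them the abundant Hadh, Decr1 and ECI2, were not called. The called entry genes were at -0.94 for cpt2, -1.12 for CRAT LABE_00063548, and -0.58, -0.64 and -0.62 for the carnitine transporter rows SLC22A5 LABE_00016286, SLC22A5 LABE_00024842 and Slc22a5 LABE_00024843. These transporter rows are low, with means of 0.508, 3.69 and 1.78 TPM over all libraries. Acads LABE_00073801 and LABE_00086796 were at -0.94 and -1.06, and peroxisomal ACOX3 and Abcd3 at -1.03 and -0.96.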

How the results depend on the processing

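Of 105 called differences of named members, 72 held under every alternative and 3 reversed, all under size factors: Hadh from BW0 to plankton-fed BW2 (0.06), ECI1 from BW2 to BW3 (-0.12) and Hadh from BW3 to BW4 (0.00). Counts of called members moved by over 1.5 times as follows, and the cause was not tested. Counts over all genes moved between settings as well, so these shifts cannot be called particular to the members. At BW2, for example, 2090 genes were higher and 4330 lower in the main fit, and 446 and 869 with the compared groups alone. With the compared groups alone, which leaves fewer samples to estimate the spread, they were 3 at BW2, 9 at BW4, 12 from BW0 to control-fed BW2, 11 from BW3 to BW4 and 37 from BW4 to BW5. Under size factors they were 0 at BW4, 1 at BW6, 19 from BW0 to control-fed BW2 and 34 from BW4 to BW5. Without the pools closer to another group they were 35 at BW2, 2 at BW3, 1 at BW6 and 32 in the first-feeding contrast. Without the pools with another title style they were 31 at BW2, 27 in the first-feeding contrast and 1 in the contrast of feeding periods; with a BW0 group of 1 pool in the same fit, they were 9 from BW0 to control-fed BW2 and 27 from BW0 to plankton-fed BW2. Leaving out 1 tank gave 5 to 22 calls at BW2, 0 to 1 at BW3, BW4, BW5 and BW6, and 0 to 0 at BW7. Leaving out 1 tank or BW0 pool gave 27 to 45 from BW0 to control-fed BW2 and 46 to 50 to plankton-fed BW2. Leaving out 1 tank gave 40 to 45 from BW2 to BW3, 2 to 7 from BW3 to BW4, 15 to 21 from BW4 to BW5, 17 to 22 from BW5 to BW6, 13 to 16 from BW6 to BW7, 30 to 32 from BW2 to BW7, 2 to 16 in the first-feeding contrast and 0 to 0 in that of feeding periods. Without the BW0 pool closer to control-fed BW2, which enters comparisons of later stages only through the spread and the set of genes tested, there were 26 calls at BW2, 47 from BW2 to BW3, 8 from BW3 to BW4, 25 from BW4 to BW5, 26 from BW5 to BW6, 21 from BW6 to BW7, 38 from BW2 to BW7 and 23 in the first-feeding contrast. The replicate block (tank), with a consensus correlation of 0.036, gave 21 calls at BW2 and changed no call of a named member. Depth is unknown, so low rows carry an error that cannot be given.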

Other observations

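At BW3 no member was called between diets, but some genes before oxidation were, with 0.141% of all genes higher and 0.141% lower. Those named were picked for the smallest p in their lists. How many other genes of these lists were called is not given here, so the named genes do not describe the lists. The fatty acid activating enzymes acsbg2 (LABE_00004842) and Acsl4 (LABE_00008441) were higher on plankton, with 30.7 ± 5.28 against 16.0 ± 0.293 TPM and 28.4 ± 4.83 against 15.6 ± 1.37 TPM (SD, n = 3 tanks each), differences of 0.88 ± 0.14 and 0.82 ± 0.15 (limma, adjusted p = 0.00121 and 0.00675). The lipid droplet coat gene PLIN2 (LABE_00009890) was lower, with 6.62 ± 0.802 against 22.0 ± 2.44 TPM (difference -1.60 ± 0.28, limma, adjusted p = 0.00533). From BW4 to BW5 PLIN2 rose from 8.47 ± 4.06 to 17.6 ± 7.90 TPM over 6 tanks (limma, adjusted p = 0.000230).

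From BW5 to BW6 the uncoupling protein gene Ucp2 (LABE_00009211) rose from 8.14 ± 1.96 to 39.2 ± 15.3 TPM and Lpin1 (LABE_00032581), a phosphatidate phosphatase, from 7.33 ± 2.16 to 24.8 ± 7.52 (n = 6 tanks a stage), while the ketone-using enzyme OXCT1 (LABE_00040702) fell from 43.6 ± 3.97 to 20.4 ± 3.14. The triglyceride lipase row PNPLA2 LABE_00021309 rose from 2.28 ± 0.391 to 7.65 ± 1.95 TPM and its coactivator ABHD5 (LABE_00034502) fell from 10.8 ± 3.33 to 1.07 ± 0.196 TPM. These genes, too, were picked for the smallest p in their lists and do not describe the lists.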
